A study of Fundulus heteroclitus with 15 samples.

Results

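Transcripts of 5 enzymes of cholesterol synthesis were followed in the liver of mummichog (Fundulus heteroclitus), a killifish of estuaries. All the fish were adult females. The members were chosen by the gene names in the array's design, with earlier results of these data known. A probe was followed if its name held cytoplasmic hydroxymethylglutaryl-CoA synthase (HMGCS1), isopentenyl-diphosphate delta-isomerase (IDI1), 14-alpha demethylase (CYP51), C-4 methylsterol oxidase (MSMO1) or delta(8),delta(7)-isomerase (EBP). This gave 6 of the array's 7152 probes. IDI1 had 2 and each other gene had 1.

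Cholesterol is built from acetyl-CoA. HMGCS1 acts early, on the way to mevalonate, and IDI1 interconverts the isoprenoid units made from mevalonate. After these are joined and closed to a sterol ring, CYP51, MSMO1 and EBP trim and rearrange the ring system. In mammals these genes are switched on together by SREBP transcription factors when cell sterol is low. Liver is a main site of cholesterol synthesis, and in egg-laying fish estrogen drives it to make vitellogenin, the lipid-carrying yolk precursor.

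EE2 (17α-ethinylestradiol), the estrogen used in oral contraceptives, was added to the water for 14 days at 0, 50 or 250 ng/L. Each group had 5 Agilent 1-colour arrays of Cy3-labelled total liver RNA, called biological replicates in the labels. The sources used here do not say whether an array holds 1 fish or a pool, which carrier the control water held, or where the fish came from. Each error is therefore a spread among arrays and may be technical in part. Of 2 slides, slide 1 carried 2 arrays without EE2, 2 at 50 ng/L and 3 at 250 ng/L, and slide 2 carried the other 3, 3 and 2. A level below is the log2 processed signal minus the log2 of that array's 75th percentile, so 0 is the 75th percentile. Levels are compared between arrays for 1 probe, never between probes. Arrays are named by group and by a number from 1 to 5 that pairs nothing.

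The exposure and the tissue label were checked first. Vitellogenin, taken at its probe 20385, had mean levels of -4.44 without EE2, 1.84 at 50 ng/L and 4.48 at 250 ng/L, so that it was 8.92 log2 units above control at the high dose. Of 9 vitellogenin probes 8 were called higher at 250 ng/L and 7 at 50 ng/L. Probe 20385 had the largest 250 ng/L difference of the 9, and the smallest was -0.245, at probe 20355. Probes 20346 and 20344 already stood at 4.04 and 4.05 in controls and differed by 4.24 and 4.01. Of 29 hepatocyte marker probes, 27 were well above background on all 15 arrays. Exocrine pancreas markers were also present, 53 of 60 probes on all arrays, and their summed signal (in multiples of each array's 75th percentile) spanned 46.4 to 787 in controls, 229 to 1710 at 50 ng/L and 296 to 2330 at 250 ng/L. Summed muscle markers were between 0.794 and 3.11 on 14 arrays and 18.4 on 250 ng/L replicate 5. The 75th percentile of the signal itself, a measure of array brightness, ran from 544.5 to 3576. It was 1393 to 2470 in controls and 798.4 to 2785 at 250 ng/L. At 50 ng/L it was 3576 on replicate 1 and 544.5 to 1021 on the others. In whole liver, fewer cells of a type and less RNA per cell cannot be told apart.

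At 250 ng/L all 6 member probes averaged above the controls, and 4 of them, for IDI1 (both probes), CYP51 and MSMO1, rose past the test. The differences of these 4 were between 1.54 and 2.59 log2 units, or 2.91-fold to 6.02-fold. The test was limma on 6145 probes with adequate signal, with Benjamini-Hochberg adjusted p under 0.05 over all of them, and 2.05% of probes were called higher. At an unadjusted p under 0.05 the same 4 of 6 were higher, against 6.20% of all probes tested. Without control replicate 3 or without high-dose replicate 5 the count fell to 2, as the IDI1 probe at position 344 and MSMO1 lost their calls. The median difference of the 6 was 1.74, against -0.05 over all probes tested, where 44.7% lay above 0. The 6 include HMGCS1, near background on most arrays, at 0.10 ± 0.81 (SE). Its sign turned with cyclic loess (-0.06), so its place above 0 carries little weight.

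**Figure D1:**
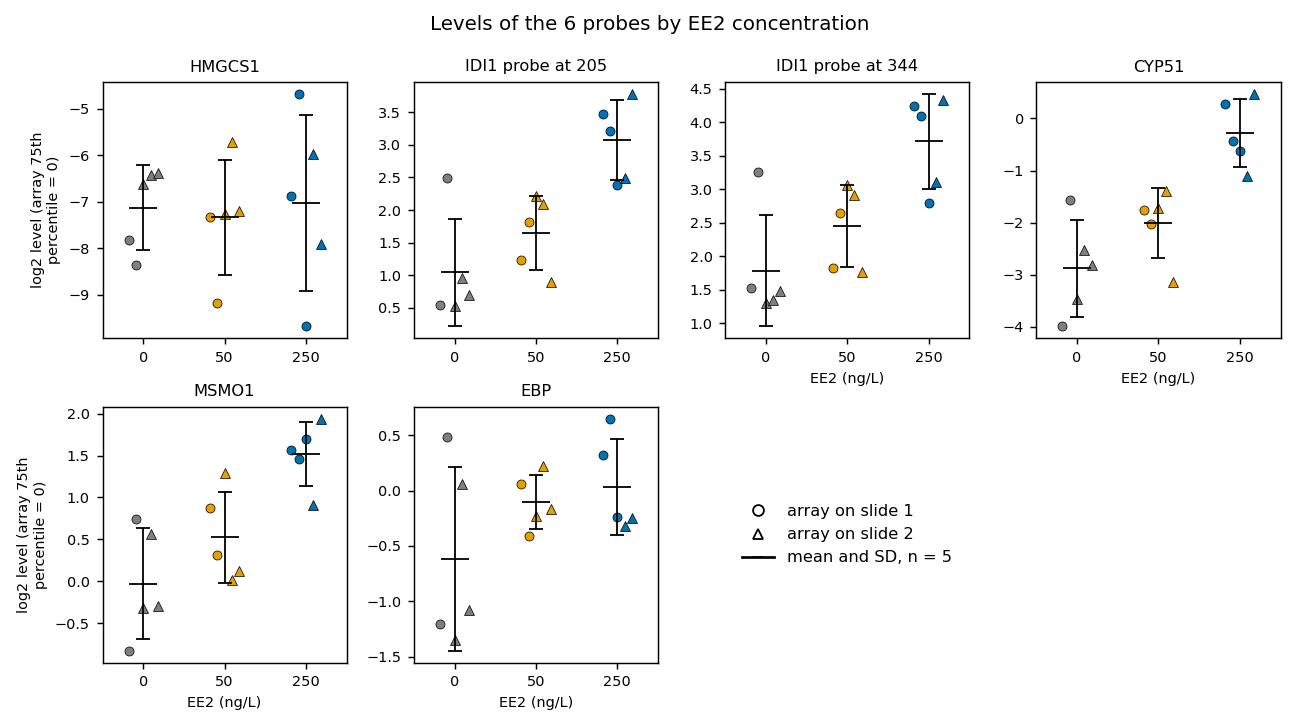
Levels of the 6 probes (y axis, log2 relative to the array's 75th percentile) by EE2 concentration (x axis, ng/L), 1 panel per probe with its own scale. Points are arrays, circles on slide 1 and triangles on slide 2, and bars are the mean and SD of 5 arrays. In CYP51 and MSMO1 every 250 ng/L array lies above every control array.

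HMGCS1, which makes HMG-CoA, was poorly measured by the array. Its levels were -7.83, -8.35, -6.62, -6.43 and -6.39 in the control arrays, -7.33, -9.18, -7.27, -5.71 and -7.19 at 50 ng/L, and -6.87, -4.68, -9.68, -5.97 and -7.90 at 250 ng/L. Only 3 control, 2 low-dose and 2 high-dose arrays were well above background, and the groups overlapped throughout. The fitted difference was 0.10 ± 0.81 (SE) at 250 ng/L, with a 95% interval of -1.61 to 1.82 and limma adjusted p of 0.972. That interval also holds the differences of MSMO1 and EBP, and no change of HMGCS1 was detectable with this probe.

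IDI1 interconverts isopentenyl and dimethylallyl diphosphate, the building blocks of all isoprenoids. Its probes lie on 1 design target, at positions 205 to 260 and 344 to 397, so they are not independent. The probe at 205 had levels of 0.54, 2.49, 0.53, 0.96 and 0.70 in controls, 1.23, 1.82, 2.22, 2.10 and 0.89 at 50 ng/L, and 3.48, 3.21, 2.39, 2.49 and 3.78 at 250 ng/L. Control replicate 2 alone reached the high-dose range, and all 5 low-dose arrays lay below all 5 high-dose arrays. The probe at 344 gave 1.52, 3.26, 1.30, 1.35 and 1.48 in controls, 1.83, 2.65, 3.07, 2.91 and 1.77 at 50 ng/L, and 4.24, 4.1, 2.80, 3.11 and 4.33 at 250 ng/L. The same control array stood high, and here 2 low-dose arrays overlapped the lowest high-dose array.

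IDI1 rose at 250 ng/L on both probes. The probe at 205 averaged 3.07 ± 0.61 at 250 ng/L and 1.04 ± 0.83 in controls (SD, n = 5 each), a difference of 2.03 ± 0.40 or 4.08-fold, with limma adjusted p = 0.0091. The probe at 344 averaged 3.72 ± 0.71 at 250 ng/L and 1.78 ± 0.83 in controls, a difference of 1.93 ± 0.43 or 3.82-fold, with limma adjusted p = 0.0204. The call of the probe at 205 held with any 1 array left out. That of the probe at 344 was lost without control replicate 1, 3 or 5 or high-dose replicate 1, 2 or 5, where the difference was 1.78 to 1.87 and the adjusted p at most 0.0648. At 50 ng/L the differences from control were 0.61 and 0.66, neither called.

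CYP51, the P450 enzyme that removes a methyl group from lanosterol, had the largest difference of the 6 probes. Its levels were -3.99, -1.57, -3.47, -2.53 and -2.81 in controls, -1.76, -2.02, -1.72, -1.40 and -3.14 at 50 ng/L, and 0.27, -0.44, -0.62, -1.11 and 0.47 at 250 ng/L. The 250 ng/L arrays did not overlap either other group, while the low-dose and control arrays overlapped each other. CYP51 averaged -0.29 ± 0.65 at 250 ng/L and -2.87 ± 0.93 in controls (SD, n = 5 each). The difference was 2.59 ± 0.45, with a 95% interval of 1.64 to 3.54, or 6.02-fold, with limma adjusted p = 0.00266. It ranked 66 of 6145 probes by difference, and its call held with any 1 array left out.

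MSMO1 starts the removal of the methyl groups at carbon 4 of the sterol ring. Its levels were -0.83, 0.74, -0.32, 0.57 and -0.29 in controls, 0.87, 0.31, 1.29, 0.02 and 0.12 at 50 ng/L, and 1.56, 1.46, 1.70, 0.91 and 1.94 at 250 ng/L. All high-dose arrays were above all controls, the nearest pair being high-dose replicate 4 and control replicate 2, and low-dose replicate 3 reached into the high-dose range. The difference at 250 ng/L was 1.54 ± 0.33, or 2.91-fold, with limma adjusted p = 0.016. The call was lost without control replicate 3 (1.47, adjusted p = 0.0515) or without high-dose replicate 5 (1.43, adjusted p = 0.0518).

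EBP, which shifts the double bond within the sterol ring, was not called. It had levels of -1.21, 0.48, -1.35, 0.06 and -1.08 in controls, 0.06, -0.41, -0.23, 0.22 and -0.17 at 50 ng/L, and 0.32, 0.65, -0.24, -0.32 and -0.25 at 250 ng/L. The controls were spread widely, with 3 low arrays and 2 arrays within the exposed range. At 250 ng/L the difference was 0.65 ± 0.34 (limma adjusted p = 0.443) and at 50 ng/L 0.51 ± 0.34.

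In CYP51 and MSMO1, 2 of 6 probes, the 250 ng/L arrays all lay above the controls, against 2.52% of all probes tested. At 50 ng/L 5 of 6 probes averaged above control, the exception being HMGCS1 at -0.21, against 49.0% of all probes. By limma 0 of the 6 were called there, against 0.553% of all probes, and at an unadjusted limma p under 0.05 there were also 0, against 2.51% of all probes. Before scaling, geometric mean signals at 50 ng/L and in controls were 3285 and 3808 for IDI1 probe 205. For IDI1 probe 344 they were 5702 and 6360, for CYP51 260.7 and 252.2, for MSMO1 1504 and 1814, and for EBP 974 and 1206. Apart from CYP51, the place of these probes above control at 50 ng/L thus rests on the scaling. The low-dose differences of IDI1, CYP51 and MSMO1 were between 0.55 and 0.87, from 29.9% to 35.6% of their high-dose differences. For EBP, uncalled at both doses, that share was 78.9%. The shares come from the same arrays and were given no interval of their own. Every low-dose difference behind them was uncalled, with a 95% limma interval that included 0, as in IDI1 probe 344 (-0.249 to 1.572). Within slide 1 and slide 2 this probe differed by -0.15 and 1.21 at 50 ng/L, and IDI1 probe 205 by 0.01 and 1.0. CYP51 varied less between slides, at 0.89 and 0.85.

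**Figure D2:**
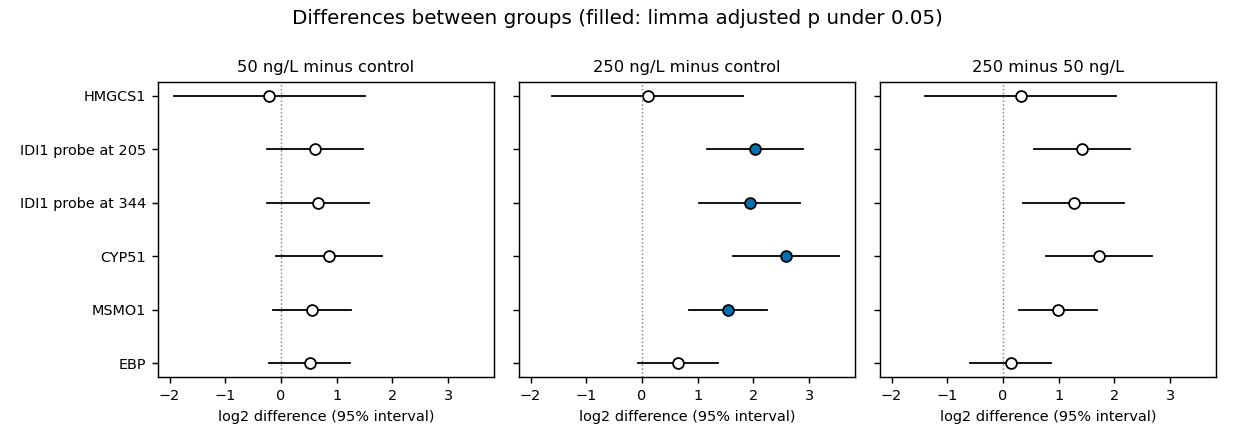
Differences between groups (x axis, log2 units) for the 6 probes, in panels for 50 ng/L minus control, 250 ng/L minus control and 250 minus 50 ng/L. Points are limma estimates, lines their 95% intervals, and filled points have adjusted p under 0.05. Filled points appear in the 250 ng/L minus control panel alone, at IDI1, CYP51 and MSMO1.

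Set directly against 50 ng/L, 250 ng/L gave higher means on 6 of 6 probes, against 44.6% of all probes. HMGCS1, near background, was among them at 0.315 ± 0.805 (SE). Of the 6 probes 0 passed the adjusted test in limma, against 1.06% of all probes called higher. At an unadjusted p under 0.05, 4 were higher, against 4.49% of all probes. These were CYP51 with 1.72 ± 0.45 (adjusted p = 0.107), IDI1 with 1.42 and 1.27 (0.177 and 0.314) and MSMO1 with 0.99 (0.299). CYP51 and the IDI1 probe at 205 had groups that did not overlap, 2 of 6 against 2.03% of all probes. Without control replicate 2, which enters through the shared spread alone, the IDI1 probe at 205 was called (1.42, adjusted p = 0.0477). The step between 50 and 250 ng/L was thus larger in the means than that between control and 50 ng/L in the 3 genes called at 250 ng/L, a comparison of steps that was not tested. Within slide 2 the IDI1 probe at 344 had 1.14 for the upper step and 1.21 for the lower. An F test over the 3 doses called CYP51 (adjusted p = 0.00897) and the IDI1 probe at 205 (0.0281), 2 of 6 against 1.90% of all probes. MSMO1 (0.0519) and the IDI1 probe at 344 (0.0638) missed. With slide as a block, 1 of 6 passed. With 1 array left out, 1 to 4 of the 6 passed: 1 without control replicate 1, 3 or 5 or high-dose replicate 1, 2 or 5, and 4 without control replicate 2.

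Within each slide the 4 called probes kept their direction at 250 ng/L, and none was called there, with 2 or 3 arrays per group. On slide 1 and slide 2 CYP51 differed by 2.52 and 2.62 and MSMO1 by 1.62 and 1.44. The IDI1 probe at 205 differed by 1.51 and 2.41 and that at 344 by 1.32 and 2.34. Control replicate 2, the high array for IDI1, is 1 of the 2 controls on slide 1.

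**Figure D3:**
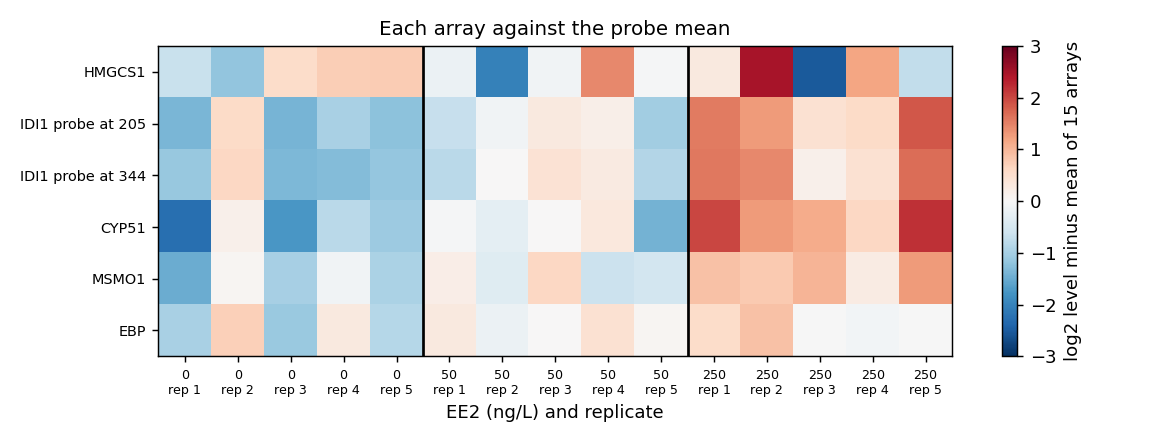
Level of each probe (rows) on each array (columns, EE2 in ng/L and replicate) minus the probe's mean over 15 arrays, in log2 units. Red is above and blue below the probe mean, and lines separate the groups. The rows of IDI1, CYP51, MSMO1 and EBP share much of their pattern, including a high control replicate 2, while HMGCS1 runs differently.

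Within a group, some arrays stood high or low in several members at once, though not in all. Control replicate 2 was the highest control on 5 of 6 probes, 2 of them for IDI1, and the lowest on HMGCS1. At 50 ng/L, replicates 3 and 4 were each highest on 3. At 250 ng/L, replicate 5 was highest on 4, and replicates 3 and 4 were each lowest on 3. After each group's mean was removed, the 14 pairs of probes of different member genes had a median correlation of 0.54 over the 15 arrays (range -0.256 to 0.864), and 11 were above 0. IDI1 enters these pairs through both of its probes, which are not independent, so it weighs more than the other genes. For a member probe against all other tested probes the median was -0.009. The points share their arrays and their scaling, and the correlations are descriptions.

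CYP51 correlated with the IDI1 probes at 205 and 344 at 0.864 and 0.747, and MSMO1 with the same probes at 0.587 and 0.434. CYP51 and MSMO1 correlated at 0.712. EBP followed CYP51 (0.637) and MSMO1 (0.544), while HMGCS1 correlated at -0.068 with CYP51 and at -0.256 with MSMO1. The IDI1 probes correlated with each other at 0.97.

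**Figure D4:**
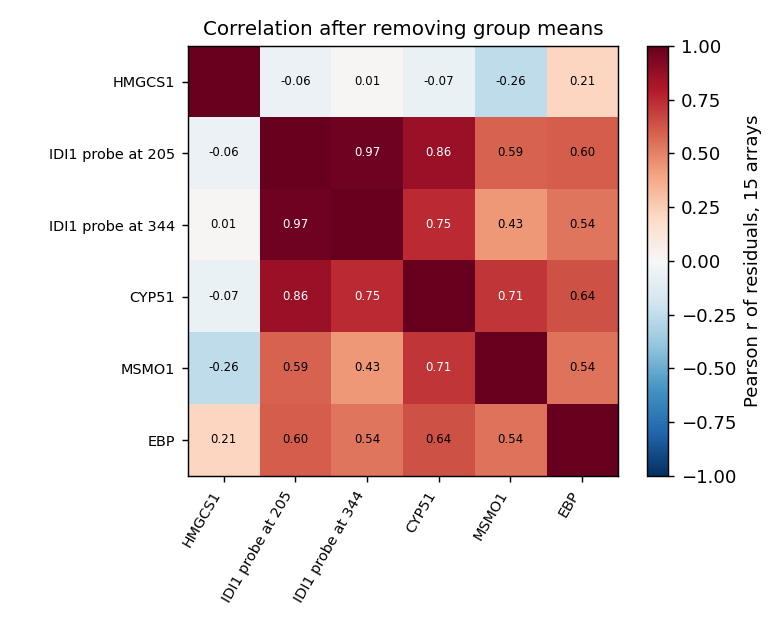
Pearson correlation between member probes over 15 arrays after each group's mean was removed (colour, with the value in each cell). The block from IDI1 to EBP is positive, up to 0.97 between the IDI1 probes, and HMGCS1 stands outside it.

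The members' mean profile was set against other properties of the arrays. It holds HMGCS1 at the same weight as the other genes, though HMGCS1 stood outside the shared pattern. At 50 and 250 ng/L HMGCS1 had the widest SD of the 6 probes (1.23 and 1.90), so its spread near background enters the correlations below. The members' mean profile, 1 probe per gene (that at 344 for IDI1) with group means removed, correlated over 15 arrays at -0.555 with summed pancreas markers, 0.407 with hepatocyte markers, 0.162 with red cell, 0.137 with muscle and 0.071 with immune cell markers, and at -0.375 with array brightness. Control replicate 2, high in 5 of 6 probes, had the lowest pancreas sum (46.4), and high-dose replicate 3 had the highest (2330). That high-dose array was lowest of its group on 3 probes, HMGCS1 and both of IDI1. Its MSMO1 level (1.70) lay above the group mean (1.515). Leaving out a high control widens the differences by construction, and so does leaving out an exposed array on probes where it is low. Without those arrays they were, at 250 ng/L, 3.0 for CYP51, 2.56 and 2.53 for IDI1, 1.69 for MSMO1 and 0.99 for EBP, with 4 of 6 probes called. In that fit, with the same reservation, both IDI1 probes passed between 250 and 50 ng/L (1.59, adjusted p = 0.0277, and 1.5, adjusted p = 0.0486). With array brightness as a covariate the 4 probes stayed called, at 1.51 to 2.52.

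Of other genes of sterol metabolism, listed by name with earlier results of these data known, the array held 18 probes for 15 genes, of which 17 were tested. At 250 ng/L 11 of 17 averaged above control, against 44.7% of all probes, and their median difference was 0.19, against -0.05. By list these were 4 of 4 probes, from 2 genes, for other synthesis proteins (median 1.05, none called). The 2 genes were ACAT2 and ERG28, and the plan's list of synthesis enzymes did not name ERG28. For transport and disposal, 6 of 11 probes averaged above control (median 0.07), and for branches from mevalonate 1 of 2 (median 0.08). StAR, which is in these counts and medians, was past the limma threshold, but met the filter on signal through exposed arrays alone. That filter favoured a place above 0 for StAR, so its share in the counts carries no weight. ERG28, named for a yeast protein that holds sterol C-4 demethylation enzymes together, came nearest the test among the other pathway proteins. Its probe 16635 had levels of -2.43, -0.21, -3.09, -2.15 and -1.84 in controls, -1.53, -0.70, -1.69, -0.92 and -1.95 at 50 ng/L, and -0.19, -0.35, -0.59, -0.87 and 0.58 at 250 ng/L. The high-dose arrays lay above every control but replicate 2. The difference was 1.66 ± 0.45 (limma adjusted p = 0.0671), and probe 16634 gave 1.46 ± 0.50 (0.182). Without control replicate 2, probe 16635 was called (2.09, limma adjusted p = 0.00229). That array was its highest control, so leaving it out widens the difference by construction. Over all fits with 1 array left out the difference was 1.37 to 2.09 and the limma adjusted p 0.00229 to 0.184. Among the fits with 1 array left out, it was called in that 1 alone. Without both control replicate 2 and high-dose replicate 3, 2 probes of this list were called.

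ACAT2, cytosolic acetyl-CoA acetyltransferase, which supplies HMGCS1 with acetoacetyl-CoA, was not called on either probe at 250 ng/L (0.57 and 0.64, adjusted p = 0.511 for both). LCAT, which esterifies cholesterol on plasma lipoproteins, was lower without a call: -0.59 (limma adjusted p = 0.174) and -0.42 (0.539). Without 250 ng/L replicate 3 the first of these was called (-0.75, limma adjusted p = 0.0367). That array was the highest of its group on this LCAT probe (5.03), so leaving it out deepens the difference by construction. Over all fits with 1 array left out the difference was -0.75 to -0.47 and the limma adjusted p 0.0367 to 0.333. Among those fits the LCAT probe was called in that 1 alone. NPC2, a lysosomal cholesterol carrier, differed by 0.33. COQ5 of ubiquinone synthesis and DOLPP1 of dolichol recycling, on branches from mevalonate, differed by -0.24 and 0.40. At 50 ng/L 0 of these 17 probes were called by limma, against 0.553% of all probes called higher. The scaled level of StAR averaged higher there, with 1 low-dose array and no control array well above background. Before scaling, the other low-dose arrays had processed signals of 3.32 to 6.45, overlapping the 3.73 to 5.23 of controls. Because StAR met the filter through exposed arrays alone, its p at that dose is no test, and no bound on its fold could be set.

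StAR is the protein that moves cholesterol into mitochondria for steroid synthesis. Its levels were -8.08, -8.47, -9.32, -9.10 and -8.91 in controls, -7.28, -7.90, -7.36, -7.11 and -7.98 at 50 ng/L, and -6.08, -7.32, -6.64, -6.06 and -5.50 at 250 ng/L. No control array, 1 low-dose array and 4 high-dose arrays were well above background, so the fold is a bound. StAR averaged -6.32 at 250 ng/L and -8.78 in controls, where it was not well above background. By the processed signal it was at least 2.05-fold higher at 250 ng/L, in a mean over all 5 high-dose arrays, of which 4 were well above background. Because of how it met the filter, its place past the limma threshold is a description and no test of the difference. The bound sets the high-dose mean against the lowest signal that counted as well above background on each control array. With normexp background correction the difference was 0.64 (limma adjusted p = 0.569), less than the 1.04 log2 units of that bound. The bound therefore depends on the background method and holds for the processed signal alone.

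**Figure D5:**
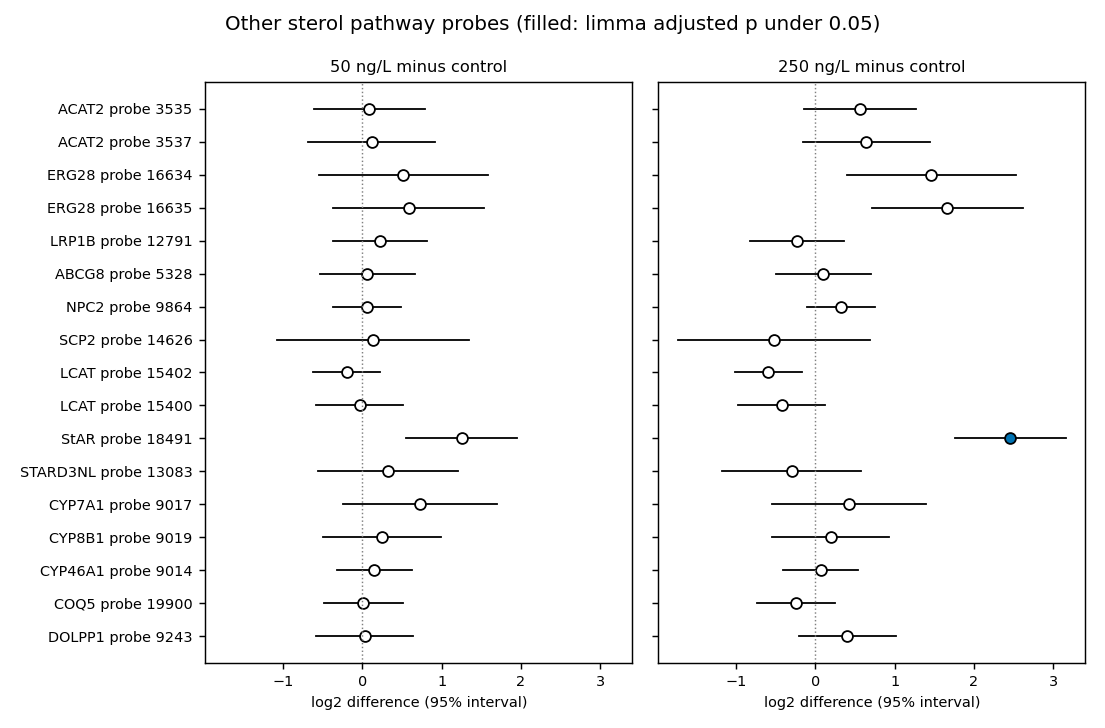
Differences from control (x axis, log2 units) at 50 and 250 ng/L for the 17 tested probes of other sterol genes. Points are limma estimates with 95% intervals, and filled points have adjusted p under 0.05. StAR at 250 ng/L is the filled point, but no control array measured it above background, so its estimate and interval there are not a measured difference. The ERG28 probes have the highest 250 ng/L estimates among the rest.

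The members' mean profile, which includes HMGCS1 and its spread near background, was used to rank other genes by likeness. Over all 15 arrays the nearest named gene was cytoplasmic acetyl-coenzyme A synthetase, which makes acetyl-CoA from acetate, with a correlation of 0.93. It was also nearest after group means were removed (0.818). Its levels were -6.00, -3.09, -5.66, -4.87 and -4.95 in controls, -4.51, -4.60, -3.37, -3.03 and -3.82 at 50 ng/L, and -1.43, -2.12, -3.10, -3.10 and -1.83 at 250 ng/L. Control replicate 2 was the highest control here too and just reached the high-dose range. The difference was 1.05 at 50 ng/L and 2.60 ± 0.51 (SE) at 250 ng/L, given with no test because the gene was chosen for its likeness over all arrays, dose difference included.

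The next genes over all arrays were the zinc and ring finger 4 probe (0.893), a probe listed as DNA- (0.886), putative alpha-mannosidase C20orf31 (0.882) and zona pellucida sperm-binding protein 4, an egg envelope protein (0.877). Names in this ranking were cut at the first bracket, so DNA- may be only the start of that probe's name. These genes were picked for likeness to a profile that is itself high at 250 ng/L, so their own high values there follow from the choice and are descriptions. The differences at 250 ng/L were 3.0 for zinc and ring finger 4, 1.01 for the DNA- probe, 4.53 for the alpha-mannosidase and 4.42 for the zona pellucida protein. After group means were removed, the next were small nuclear ribonucleoprotein G (0.745), transforming acidic coiled-coil-containing protein 2 (0.742), zinc finger DHHC domain containing protein 18 (0.741) and zona pellucida sperm-binding protein 4 (0.734). Apart from the zona pellucida protein these differed from control by 0.21 to 0.91 at 250 ng/L. The coiled-coil protein was well above background on only 2 control, 2 low-dose and 3 high-dose arrays.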

How the data were processed

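The authors deposited spot intensity and quality flags that, per the file headers, came from Agilent Feature Extraction 10.7.1.1 on 1-colour scans, with background subtracted and no normalization between arrays. The authors' deposited log2 table was an alternative. It correlated with the scanner's processed values at 0.993 to 0.998 per array, the sources used here do not give its steps, and 0 of its columns were unused. Array precision is limited by the number of arrays.

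Spots with an outlier flag and 5 custom control probes were left out, and each probe is the mean of its 2 spots, none saturated. Log2 processed signals were scaled to each array's 75th percentile. Probes well above background on at least 5 of 15 arrays were tested (6145 of 7152; 5133 on all 15) in limma 3.58.1 under R 4.3.3, a mean per group with 12 residual degrees of freedom, after a test on simulated data. P-values were Benjamini-Hochberg adjusted per comparison over all probes tested. Summaries used Python 3.11.15.

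Members and lists were chosen with earlier results of these data known. Some probes that the choice of members by name also covers are not reported here. Of the members, every probe is named; of other sterol genes, those called and up to 4 per list with the smallest p at 250 ng/L; and the 5 genes most like the members by each measure. Names are the design's, cut at the first bracket in the ranking by likeness, and can be old. Alternatives were the background correction (normexp, offset 50, on median spot signals), normalization, filter, slide, brightness and left-out arrays. No probe was tied to a reference gene, so no sequences or positions in the genome are given.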

Additional observations from a re-analysis of the deposited data

Results flagged for a closer look

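In 6 of 75 groups of 5 arrays, 1 array stood apart by Dixon's criterion (a gap to the nearest other array above 0.71 of the group's range), where chance gives about 1 in 20. The 75 groups cover the named probes, 18 of them for members. Both member results were control replicate 2 in IDI1, at 2.49 against a next highest control of 0.96 on the probe at 205, and at 3.26 against 1.52 on the probe at 344. Without it the IDI1 differences at 250 ng/L were 2.39 and 2.30, against 2.03 and 1.93 with all arrays. Control replicate 1 was low for ACAT2 probe 3535 (-3.60, next -2.87) and for zinc finger DHHC domain containing protein 18 (-5.60, next -5.10). For LCAT probe 15400, 50 ng/L replicate 2 was low (1.16, next 1.73) and 250 ng/L replicate 3 was high (2.02, next 1.18).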

How the results depend on the processing

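The count of 4 member probes called at 250 ng/L stayed 4 under every alternative over all arrays and without both arrays farthest apart in pancreas markers (an alternative chosen after seeing an earlier account of the data). Within slide 1 and within slide 2, 0 passed. Leaving out 1 array gave 2 to 4, and 0 to 0 at 50 ng/L. Between 250 and 50 ng/L 0 became 2 without both pancreas-extreme arrays and 0 to 1 with 1 array out. The F test gave 4 with cyclic loess, 1 with slide as a block, 0 within each slide and 1 to 4 with 1 array out. For other sterol genes at 250 ng/L, the 1 call (StAR) became 0 with normexp and within slide 1, 2 without both pancreas-extreme arrays, and 1 to 2 with 1 array out. On probes measured on all 15 arrays it was 0, but that filter removes StAR before any test. Calls of other sterol genes were 0 to 0 at 50 ng/L and 0 to 1 between 250 and 50 ng/L with 1 array out. Over all probes, the 166 calls at 250 ng/L became 42 within slide 1, 109 within slide 2 and 122 to 191 with 1 array out. The 34 at 50 ng/L became 3 within slide 1, 20 with brightness as a covariate and 22 to 36 with 1 array out. The 67 between 250 and 50 ng/L became 44 with normexp, 0 within each slide and 34 to 67 with 1 array out. The 117 of the F test became 8 within slide 1, 64 within slide 2 and 100 to 129 with 1 array out.

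Differences that turned sign were all uncalled, and the cause was not tested. Within slide 1 at 50 ng/L against control these were the IDI1 probe at 344 (-0.15), ACAT2 probe 3535 (-0.05), NPC2 (-0.25), LCAT probe 15400 (0.09), COQ5 (-0.18), DOLPP1 (-0.55) and acetyl-coenzyme A synthetase (-0.02). Also on slide 1, COQ5 between doses was 0.12, and small nuclear ribonucleoprotein G was -0.05 and transforming acidic coiled-coil-containing protein 2 was -0.63 at 250 ng/L. Within slide 2 between 250 and 50 ng/L, values were -0.21 for HMGCS1, -0.23 for EBP, -0.14 for ribonucleoprotein G and -0.02 for zinc finger DHHC 18. On slide 2 against control they were HMGCS1 (-0.46) at 250 ng/L, and ACAT2 probe 3537 (-0.14), ribonucleoprotein G (0.44), the coiled-coil protein (0.47) and zinc finger DHHC 18 (0.06) at 50 ng/L. With normexp, which set the all-probe medians at 0.095, 0.191 and -0.148 for 250 and 50 ng/L against control and 250 against 50 ng/L, HMGCS1 was 0.58 at 50 ng/L and -0.19 between doses, StAR was -0.07 and the coiled-coil protein -0.02 between doses, COQ5 was 0.12 at 250 ng/L, ribonucleoprotein G 0.17, the coiled-coil protein 0.47 and zinc finger DHHC 18 0.42 at 50 ng/L, and the last -0.12 between doses. Cyclic loess gave HMGCS1 -0.06 at 250 ng/L, and LCAT probe 15400 0.01 and COQ5 -0.02 at 50 ng/L. Brightness as a covariate gave HMGCS1 -0.00 at 250 ng/L, and LCAT probe 15400 0.09, COQ5 -0.09 and DOLPP1 -0.19 at 50 ng/L. COQ5 at 50 ng/L was also -0.00 with quantile normalization and -0.01 with median scaling. Without both pancreas-extreme arrays LCAT probe 15400 was 0.02, COQ5 -0.01, ribonucleoprotein G 0.05 and the coiled-coil protein 0.16 at 50 ng/L.

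With 1 array out, ranges that crossed 0 were, between 250 and 50 ng/L, -0.02 to 0.22 for EBP and -0.27 to 0.98 for HMGCS1. Against control HMGCS1 ran from -0.48 to 0.77 at 250 ng/L and from -0.62 to 0.25 at 50 ng/L. At 50 ng/L so did ACAT2 (-0.08 to 0.33 and -0.07 to 0.31), NPC2 (-0.07 to 0.19), LCAT probe 15400 (-0.23 to 0.10), COQ5 (-0.11 to 0.12), DOLPP1 (-0.14 to 0.27), ribonucleoprotein G (-0.28 to 0.05), the coiled-coil protein (-1.08 to 0.16) and zinc finger DHHC 18 (-0.16 to 0.08). No paired analysis was possible because the labels carry no replicate numbers. HMGCS1 and StAR were near background on most arrays, which limits their values.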
